A study of Mus musculus with 8 samples.

Results

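The genes described here are 10 components of the Notch pathway: the receptors Notch1, Notch2 and Notch3, the glycosyltransferase Lfng, the ligands Jag1 and Dll1, and the target genes Hes1, Hes5, Hey1 and Hey2. They were picked by name from the 55573 gene IDs of the count files, with their levels across genotype and age in these same libraries already known. Each symbol matched 1 gene ID, and all 10 passed the filter on low counts. Because the same contrasts had served to choose the genes, their levels, fold changes and calls are given as a description, without p-values.

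RNA-seq was run on tdTomato-marked cells sorted from the cortex of mice with the DNA methyltransferase gene Dnmt1 deleted (KO) or intact (WT), to compare the genotypes and the ages. KO mice carried PV-Cre, the tdTomato reporter and Dnmt1 loxP2, an allele that Cre turns into a null allele. WT mice carried PV-Cre and tdTomato with wild-type Dnmt1, so all groups shared the driver and the reporter, on a C57BL/6 background. There were 4 groups, KO at 18 months, WT at 18 months, KO at 6 months and WT at 6 months, each with 2 libraries that the labels call technical replicates of pooled cells. The labels do not give the sex of the mice. PV-Cre is driven by the parvalbumin locus, so the deletion is meant for parvalbumin-expressing cells. With pooled cells, a p-value reflects only how far these libraries differ, possibly for technical reasons, and says nothing of variation among mice.

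Notch receptors are single-pass membrane proteins that are activated by Delta-like and Jagged ligands on a neighbouring cell. Ligand binding leads to cleavage of the receptor, and the released intracellular domain enters the nucleus, joins the DNA-binding protein RBPJ and switches on genes of the Hes and Hey families, which encode transcriptional repressors. In the adult brain the pathway is known from astrocytes, from progenitor cells, and from the mural cells of blood vessels, where Notch3 is the typical receptor.

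The promoters of Hes5, Hey2 and Lfng are shown because they hold the motif searched for. A link between the motif and the levels of these genes was not tested. RefSeq promoter windows (GRCm38.p6) were found for 8 of the 10 genes: Notch1, Notch2, Notch3, Lfng, Jag1, Dll1, Hes5 and Hey2. In the 250 bases before the start site, TGGGAA, the core of the RBPJ motif, was searched on both strands. The windows of Lfng, Hes5 and Hey2 held it, and those of Notch1, Notch2, Notch3, Jag1 and Dll1 did not hold these letters. Of 32851 promoter windows of this length, 21.6% held it. In the sequences below, written 5′ to 3′ in the direction of the gene, capitals mark each match, which reads TTCCCA where it lies on the opposite strand.
Hes5, chr4:154960673-154960922, plus strand: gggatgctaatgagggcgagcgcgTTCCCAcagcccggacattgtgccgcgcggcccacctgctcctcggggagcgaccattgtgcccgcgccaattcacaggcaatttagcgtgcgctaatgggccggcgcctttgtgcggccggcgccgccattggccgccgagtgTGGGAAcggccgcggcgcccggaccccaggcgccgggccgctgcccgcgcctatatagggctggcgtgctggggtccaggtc
Hey2, chr10:30842784-30843033, minus strand: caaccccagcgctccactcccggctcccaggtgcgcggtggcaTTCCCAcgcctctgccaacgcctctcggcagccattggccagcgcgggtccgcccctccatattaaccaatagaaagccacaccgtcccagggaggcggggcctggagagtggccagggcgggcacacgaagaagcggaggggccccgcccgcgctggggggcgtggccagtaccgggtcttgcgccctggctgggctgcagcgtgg
Lfng, chr5:140607091-140607340, plus strand: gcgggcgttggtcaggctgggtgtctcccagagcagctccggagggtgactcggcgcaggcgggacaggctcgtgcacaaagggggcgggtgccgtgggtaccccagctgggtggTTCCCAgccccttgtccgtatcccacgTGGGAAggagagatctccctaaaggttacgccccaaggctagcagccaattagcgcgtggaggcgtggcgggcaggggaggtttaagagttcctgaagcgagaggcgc
The Hes5 window held a match on the opposite strand 226 bases before the start and another on the same strand 82 bases before it. In Lfng the matches lay 135 bases before the start on the opposite strand and 108 bases before it on the same strand, and Hey2 had a match on the opposite strand 207 bases before the start. A match is a run of letters and not a measured binding site.

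The libraries held 6008175 to 13551218 counts. The WT libraries at 6 months stood apart, with correlations of log2 CPM (reads relative to library size, scaled by the trimmed mean of M values, TMM) of 0.9 to 0.951 with the other groups, where the other 3 groups correlated at 0.958 to 0.977 among themselves. Every comparison that uses the WT cells at 6 months rests on those libraries. Dnmt1 had 74.3 and 76.6 CPM in KO cells at 18 months, against 80.8 and 81.1 CPM in WT cells, and 77.2 and 75.2 CPM in KO cells at 6 months, against 97.9 and 104 CPM in WT cells. Pvalb, the gene that defines the labelled cell type, had 6 reads in all 8 libraries together. The 9 markers of GABA neurons summed to 9.92 to 196.7 CPM per library, below the 12 astrocyte markers, at 4250 to 12480 CPM, and the 12 oligodendrocyte markers, at 14190 to 41600 CPM. The GABA neuron sum differed 19.3-fold between group means. It was 10.08 CPM in KO and 19.77 CPM in WT cells at 18 months, and 36.19 and 194.4 CPM at 6 months. These markers go against the label of PV-positive interneurons, and the samples are therefore called sorted cells.

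Of the 10 genes, 9 had both KO libraries above both WT libraries at 18 months, as did 32.6% of all 18205 genes tested. At 6 months 9 had both KO libraries below both WT libraries, as did 33.4% of all genes, and 8 did both, as did 14%. The exceptions were Dll1, which was lower in KO cells at both ages, and Notch3, which was higher in KO cells at both ages. By edgeR's quasi-likelihood test with an adjusted p under 0.05, 7 of the 10 were higher and 1 was lower in KO cells at 18 months. Over all genes tested, 32.1% passed, 14.7% as higher and 17.4% as lower. At 6 months, 1 of the 10 was higher and 7 were lower in KO cells, where 38.8% of all genes passed, 19.2% as higher and 19.6% as lower. The median log2 fold change of the 10 genes, KO over WT, was 0.47 at 18 months and -0.76 at 6 months, and that of all genes was 0 at both ages. As these contrasts served to choose the genes, passing the threshold is only a description of size against the spread between libraries, here and below, and nothing is read from the counts beside the shares of all genes. In pooled cells, fewer cells of a type and less RNA per cell cannot be told apart.

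**Figure D1:**
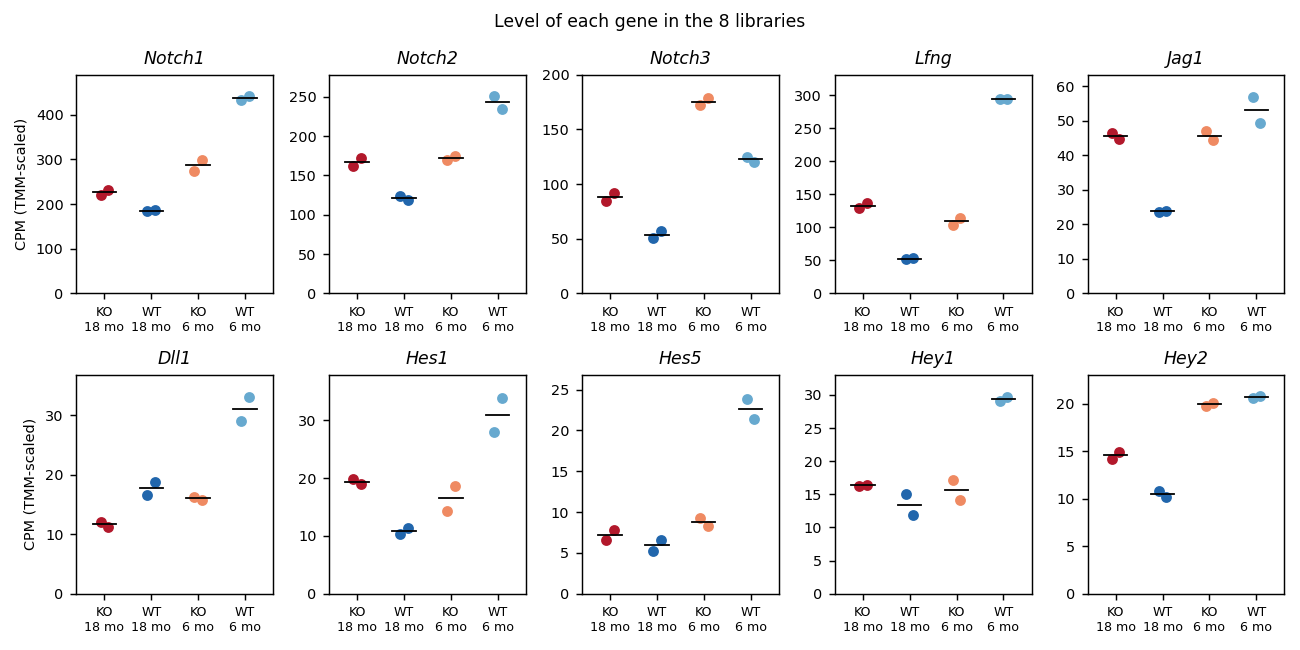
Levels of the 10 genes in CPM (linear axes from 0) in the 8 libraries, with KO and WT at 18 months on the left of each panel and KO and WT at 6 months on the right. Points are libraries and lines are group means (n = 2). WT cells at 6 months were highest for every gene except Notch3, which was highest in KO cells at 6 months, and WT cells at 18 months were lowest for every gene except Dll1, which was lowest in KO cells at 18 months.

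Notch1 (ENSMUSG00000026923, chr2:26457903-26516663, minus strand) was the receptor with the highest CPM in each group (positions of genes are on mm10). It had 221 and 231 CPM in KO cells at 18 months, against 184 and 186 CPM in WT cells of that age, and 275 and 298 CPM in KO cells at 6 months, against 432 and 441 CPM in WT cells. The genotypes were thus apart at both ages but in opposite order. KO over WT was 1.22-fold at 18 months (95% interval 1.12 to 1.33; log2 fold change 0.29, SE 0.0589). At 6 months the ratio was 0.656 (95% interval 0.604 to 0.714; log2 fold change -0.61, SE 0.0584).

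Notch2 (ENSMUSG00000027878, chr3:98013527-98150361, plus strand) followed the same order. It had 162 and 172 CPM in KO cells at 18 months, against 124 and 119 CPM in WT cells, a ratio of 1.37 (95% interval 1.26 to 1.50). It had 169 and 175 CPM in KO cells at 6 months, against 251 and 235 CPM in WT cells, a ratio of 0.707 (95% interval 0.646 to 0.773). The 4 KO libraries of Notch2 spanned 162 to 175 CPM, so its spread over the groups came from WT cells, which were below KO cells at 18 months and above them at 6 months.

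Notch3 (ENSMUSG00000038146, chr17:32120820-32166852, minus strand), the receptor typical of pericytes and vascular smooth muscle, had a pattern of its own. It had 84.5 and 92 CPM in KO cells at 18 months, against 50.9 and 56.7 CPM in WT cells, and 172 and 179 CPM in KO cells at 6 months, against 125 and 120 CPM in WT cells. KO libraries were above WT libraries at both ages, 1.63-fold at 18 months (95% interval 1.46 to 1.81) and 1.43-fold at 6 months (95% interval 1.29 to 1.58). The summed level of 11 markers of pericytes and smooth muscle was also higher in KO cells at both ages.

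Lfng (ENSMUSG00000029570, chr5:140607320-140615545, plus strand) encodes lunatic fringe, which adds sugars to Notch receptors in the Golgi and so alters their response to Delta-like and Jagged ligands. It had 129 and 137 CPM in KO cells at 18 months, against 52.5 and 53.0 CPM in WT cells of the same age. It had 104 and 115 CPM in KO cells at 6 months, against 295 and 294 CPM in WT cells. Of the 10 genes it had the largest genotype difference at each age. At 6 months, however, its 95% interval (ratio 0.339 to 0.408) lay within that of Hes5 (0.303 to 0.495). KO over WT was 2.52-fold at 18 months (95% interval 2.28 to 2.78; log2 fold change 1.33, SE 0.0687). At 6 months Lfng was 2.69-fold lower in KO cells (log2 fold change -1.43, SE 0.0645).

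Jag1 (ENSMUSG00000027276, chr2:137081456-137116644, minus strand), a Jagged ligand, had 46.4 and 44.6 CPM in KO cells at 18 months, against 23.6 and 23.9 CPM in WT cells, a 1.92-fold difference (95% interval 1.67 to 2.21). At 6 months it had 47.0 and 44.4 CPM in KO cells, against 57.0 and 49.2 CPM in WT cells. Those libraries did not overlap, yet the ratio of 0.861 (95% interval 0.748 to 0.991) missed the threshold over all genes, and passed it without the second WT library at 6 months. The 4 KO libraries again lay close together, at 44.4 to 47.0 CPM.

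Dll1 (ENSMUSG00000014773, chr17:15367354-15376872, minus strand), a Delta-like ligand, was the only one of the 10 with KO below WT at both ages. It had 12.1 and 11.3 CPM in KO cells at 18 months, against 16.6 and 18.8 CPM in WT cells, and 16.3 and 15.8 CPM in KO cells at 6 months, against 29.1 and 33.0 CPM in WT cells. The ratio was 0.659 at 18 months (95% interval 0.543 to 0.799) and 0.516 at 6 months (95% interval 0.425 to 0.626). Without the second WT library at 18 months, the difference at 18 months no longer passed the threshold, and 6 of the 10 genes passed there. The ligands thus differed in direction at 18 months, with Jag1 higher and Dll1 lower in KO cells.

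The target genes had lower counts than the receptors, from 42 reads in a library for Hes5 upward, and wider intervals. Hes1 (ENSMUSG00000022528, chr16:30064384-30067796, plus strand) had 19.8 and 18.9 CPM in KO cells at 18 months, against 10.4 and 11.4 CPM in WT cells, a 1.76-fold difference (95% interval 1.43 to 2.18). At 6 months it had 14.3 and 18.7 CPM in KO cells, against 28.0 and 33.9 CPM in WT cells, a ratio of 0.533 (95% interval 0.432 to 0.658). Hes1 encodes a repressor that is widely used as a readout of Notch activity, although other signals also act on it.

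Hes5 (ENSMUSG00000048001, chr4:154960923-154962371, plus strand), a repressor known from neural progenitors and astrocytes, had 6.57 and 7.76 CPM in KO cells at 18 months, against 5.27 and 6.54 CPM in WT cells. At 6 months it had 9.28 and 8.24 CPM in KO cells, against 23.9 and 21.4 CPM in WT cells. Only the 6-month difference passed the threshold, 2.58-fold lower in KO cells (log2 fold change -1.37, SE 0.171). At 18 months the ratio was 1.19 with a 95% interval of 0.903 to 1.56, which spans 1.

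Hey1 (ENSMUSG00000040289, chr3:8663359-8667256, minus strand) and Hey2 (ENSMUSG00000019789, chr10:30832359-30842801, minus strand) encode related repressors with known roles in blood vessels and the heart. Hey1 had 16.3 and 16.4 CPM in KO cells at 18 months, against 15 and 11.9 CPM in WT cells, and 17.1 and 14.1 CPM in KO cells at 6 months, against 29.1 and 29.7 CPM in WT cells. For Hey1 the 6-month ratio of 0.530 (95% interval 0.431 to 0.652) passed the threshold, and the 18-month log2 fold change of 0.30 (SE 0.142) did not, although it passed without the first WT library at 18 months.

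Hey2 had 14.2 and 14.9 CPM in KO cells at 18 months, against 10.8 and 10.2 CPM in WT cells, and 19.8 and 20.1 CPM in KO cells at 6 months, against 20.6 and 20.8 CPM in WT cells. It was therefore close between genotypes at 6 months, with a ratio of 0.964 (95% interval 0.793 to 1.17), and 1.40-fold higher in KO cells at 18 months (95% interval 1.14 to 1.70). The 18-month call of Hey2 was lost without the second KO library and without the second WT library at 18 months.

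**Figure D2:**
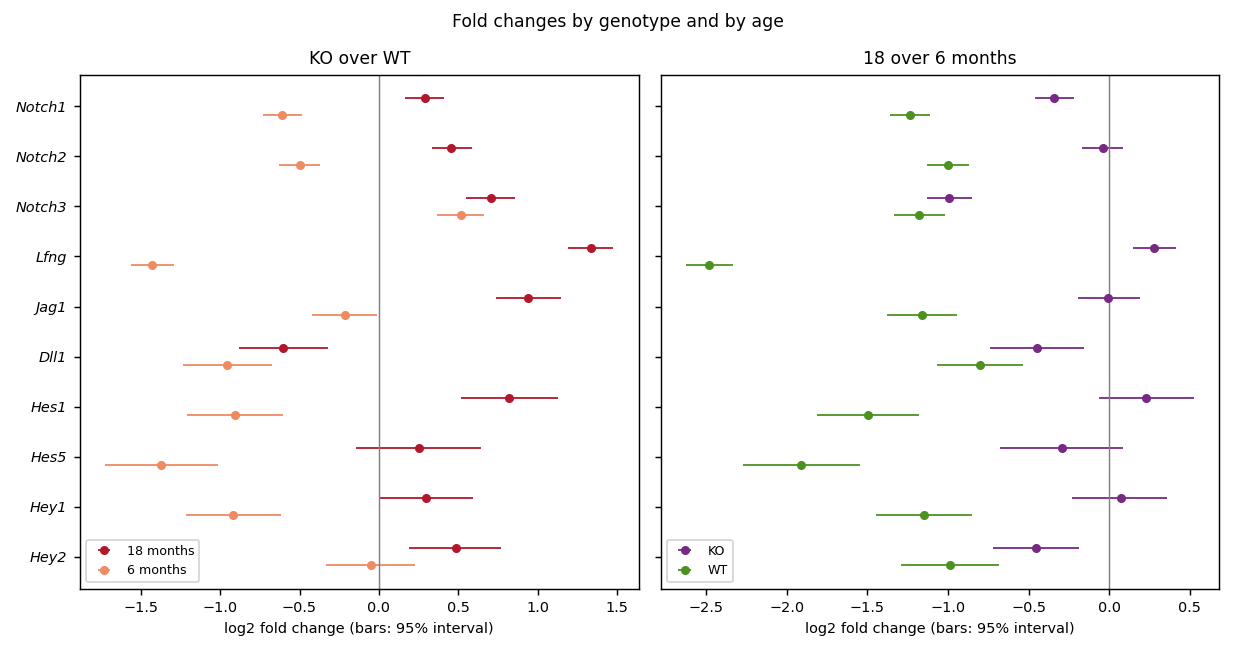
Log2 fold changes of the 10 genes with 95% intervals from the edgeR fit, KO over WT on the left (18 and 6 months) and 18 over 6 months on the right (KO and WT cells). For KO over WT the 18-month points lie right of 0 except Dll1 and the 6-month points lie left of it except Notch3, and the 18-over-6-months points of WT cells all lie left of 0.

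In WT cells all 10 genes were lower at 18 months than at 6 months, with no overlap between the libraries of the ages, an order that 40% of all genes showed. All 10 passed the threshold. Of all genes tested 59% passed, 28.2% as higher and 30.8% as lower. The fold was largest for Lfng, 5.58-fold lower (log2 fold change -2.48, SE 0.0687), followed by Hes5, 3.76-fold lower, and Hes1, 2.82-fold lower. Notch1, Notch3, Jag1 and Hey1 were 2.22-fold to 2.36-fold lower, Notch2 2.00-fold, Hey2 1.98-fold and Dll1 1.74-fold lower. The median over the 10 genes was -1.17 on the log2 scale, and that of all genes was -0.04.

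In KO cells the ages were closer. At 18 months against 6 months, 1 of the 10 genes was higher and 4 were lower, where 31.7% of all genes passed, 13.8% as higher and 17.9% as lower. Lfng was 1.21-fold higher at 18 months (95% interval 1.11 to 1.33). Notch3 was 1.99-fold lower, Hey2 1.37-fold, Dll1 1.36-fold and Notch1 1.27-fold lower. For Notch2 the ratio was 0.973 (95% interval 0.891 to 1.06) and for Jag1 0.996 (95% interval 0.873 to 1.14), with libraries of the ages overlapping. Hes1, Hes5 and Hey1 had ratios of 1.17, 0.815 and 1.05 with intervals that span 1. The count of 5 genes past the threshold was 3 without the first KO library at 18 months and 3 without either KO library at 6 months. The call of Dll1 was lost without any 1 of the 4 KO libraries, that of Hey2 without the first at 18 months or the second at 6 months, and that of Lfng without the first at 6 months.

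The change of the genotype difference with age, the log2 fold change of KO over WT at 18 months minus that at 6 months, was above 0 for all 10 genes. It passed the threshold as higher for 8 of 10 and as lower for 0 of 10, where 39.1% of all genes passed, 18.4% as higher and 20.7% as lower. As the genes were chosen with these levels known, that count is a description and nothing is read from it. The change was 2.76 for Lfng (SE 0.0942), 1.73 for Hes1 (SE 0.208), 1.61 for Hes5 (SE 0.256), 1.22 for Hey1 (SE 0.202) and 1.16 for Jag1 (SE 0.139). Notch2 had 0.96, Notch1 0.90 and Hey2 0.53, the last of which missed the threshold whenever any 1 library was left out. For Dll1 it was 0.35 (SE 0.192) and for Notch3 0.19 (SE 0.103), both short of the threshold. Each passed it in 1 of 15 other settings, and nothing is read from either result. In the comparisons within 1 age and within 1 genotype the same libraries recur, so these values are not independent of each other.

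Levels can be set beside each other between genes only per length, as CPM per kb of exon. Lfng was highest in each group by this measure, at 53.1 ± 2.04 CPM per kb in KO cells at 18 months, 21.1 ± 0.119 in WT cells at 18 months, 43.7 ± 3.00 in KO cells at 6 months and 118 ± 0.317 in WT cells at 6 months (SD, n = 2 each). Among the receptors, Notch1 came second after Lfng in 3 of the groups. In KO cells at 6 months Notch3 took that place with 21.7 ± 0.649 CPM per kb, ahead of Notch1 with 20.1 ± 1.17 and Notch2 with 15.9 ± 0.370, and in KO cells at 18 months the libraries of Notch1 and Notch2 overlapped.

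The ligands and Hey genes filled the lower places in WT cells. In KO cells Jag1 stood above Hes5, at 7.81 against 5.26 CPM per kb at 18 months and 7.84 against 6.42 at 6 months. Dll1 was lowest in KO cells, at 2.78 ± 0.140 CPM per kb at 18 months and 3.79 ± 0.0841 at 6 months. Hey2 was lowest in WT cells, at 2.28 ± 0.0958 CPM per kb at 18 months and 4.50 ± 0.0333 at 6 months. Hes5 and Hes1 stood at 16.6 ± 1.26 and 15.2 ± 2.07 CPM per kb in WT cells at 6 months, with overlapping libraries, beside 15.1 ± 0.456 for Notch3. In WT cells at 18 months Hes5, Dll1, Hey1 and Jag1 lay at 4.33 ± 0.662, 4.19 ± 0.374, 4.13 ± 0.675 and 4.07 ± 0.0352 CPM per kb, each overlapping with the next.

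Exons of Notch1, Notch3, Dll1 and Hes5 overlap a gene on the opposite strand, and Notch2 one on the same strand, in the annotation of this build. No source used here says whether the counting used strand. The overlapping genes had at most 1.73 CPM for Notch1, 5.42 for Notch2, 1.60 for Notch3, 3.44 for Dll1 and 1.81 for Hes5, which is most, relative to the level of the gene itself, for Dll1 and Hes5.

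Of 57 other genes of the pathway, 51 could be tested. In KO cells at 18 months 8 were higher and 12 lower than in WT cells, 39.2% of those tested, where 32.1% of all genes passed. At 6 months 8 were higher and 18 lower, 51%, where 38.8% of all genes passed. The median log2 fold change of the 51 genes was -0.02 at 18 months and -0.17 at 6 months. Leaving out 1 library moved the 18-month counts to 5 higher without the first KO or the second WT library, and to 8 and 6 lower without the same libraries. At 6 months 12 were lower without the first KO library.

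Among the factors of the same families as the members, Heyl, another Hey gene known from vascular smooth muscle, had 16.0 and 16.6 CPM in KO cells at 18 months, against 11 and 9.16 CPM in WT cells, and 29.3 and 33.7 CPM in KO cells at 6 months, against 15.3 and 19.7 CPM in WT cells. It rose in KO cells at both ages, with a log2 fold change of 0.71 at 18 months (adjusted p = 0.000721, edgeR) and 0.85 at 6 months (adjusted p = 4.6e-05, edgeR), the same direction as Notch3. Notch4, the receptor known from endothelium, did not pass in either genotype comparison, with 0.21 at 18 months (adjusted p = 0.443, edgeR) and -0.18 at 6 months (adjusted p = 0.47, edgeR). Dll4, an endothelial ligand with 2 to 22 reads per library, had -0.42 at 18 months (adjusted p = 0.596, edgeR) and 0.33 at 6 months (adjusted p = 0.692, edgeR), and the 6-month value was 2.37 and past the threshold without the second WT library.

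Of the 10 genes for receptor cleavage, 3 fell at 18 months and 3 rose at 6 months in KO cells, and no other passed at either age. Over all genes 32.1% passed at 18 months and 38.8% at 6 months, so this count is no higher than the share of all genes. Adam10 and Adam17, which encode proteases that cut the receptor outside the membrane, were among them at both ages. Adam17 had a log2 fold change of -0.40 at 18 months (adjusted p = 0.00018, edgeR) and Adam10 one of 0.61 at 6 months (adjusted p = 1.46e-06, edgeR). The interaction passed for Adam10 at -0.85 (adjusted p = 5.78e-07, edgeR) and for Adam17 at -0.73 (adjusted p = 1.01e-05, edgeR). At 18 months Adam10 had -0.23, a call lost without the second KO or the first WT library of that age and with library totals in place of TMM. Their direction was opposite to that of most receptors and targets in both comparisons.

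Of the 11 receptor regulators, 3 rose and 1 fell at 18 months, and 1 rose and 7 fell at 6 months in KO cells. Of all genes, 32.1% passed at 18 months and 38.8% at 6 months. Nrarp, itself a Notch target that feeds back on the pathway, had 12.4 and 11.2 CPM in KO cells at 18 months, against 8.40 and 7.93 CPM in WT cells, and 12.1 and 16.0 CPM in KO cells at 6 months, against 33.4 and 27.8 CPM in WT cells. It fell 2.18-fold in KO cells at 6 months (adjusted p = 2.13e-06, edgeR), and at 18 months it rose 1.45-fold (adjusted p = 0.0165, edgeR), a call lost without the first KO or the second WT library of that age. Dtx1, a Deltex ubiquitin ligase, had log2 fold changes of 0.48 at 18 months (adjusted p = 0.000386, edgeR) and -0.79 at 6 months (adjusted p = 1.49e-07, edgeR). The same signs were seen for Dner, a non-canonical ligand, with 0.46 (adjusted p = 0.00017, edgeR) and -0.69 (adjusted p = 3.92e-07, edgeR).

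Itch, a ubiquitin ligase that acts on Notch, had the opposite signs, with -0.42 at 18 months (adjusted p = 2.43e-05, edgeR) and 0.71 at 6 months (adjusted p = 2.65e-08, edgeR). Other genes with the smallest p at 18 months were Aak1, at 0.30, and Snw1, at -0.55 in log2. Those at 6 months were Kat2b, at 0.41, and Dtx3, at -0.54. The counts by role that follow stand beside the same shares of all genes, 32.1% at 18 months and 38.8% at 6 months. Of the 3 other ligands, 2 fell in KO cells at each age. Of the 8 genes of the nuclear complex, 2 rose and 3 fell at each age, and Rbpj, singled out here after its values were seen because it encodes the DNA-binding partner of Notch, rose at 18 months by 0.31 (adjusted p = 0.0466, edgeR) and at 6 months by 0.65 in log2 (adjusted p = 0.001, edgeR). The 18-month call of Rbpj was lost without any 1 of the 18-month libraries or the first KO library at 6 months, and with DESeq2.

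**Figure D3:**
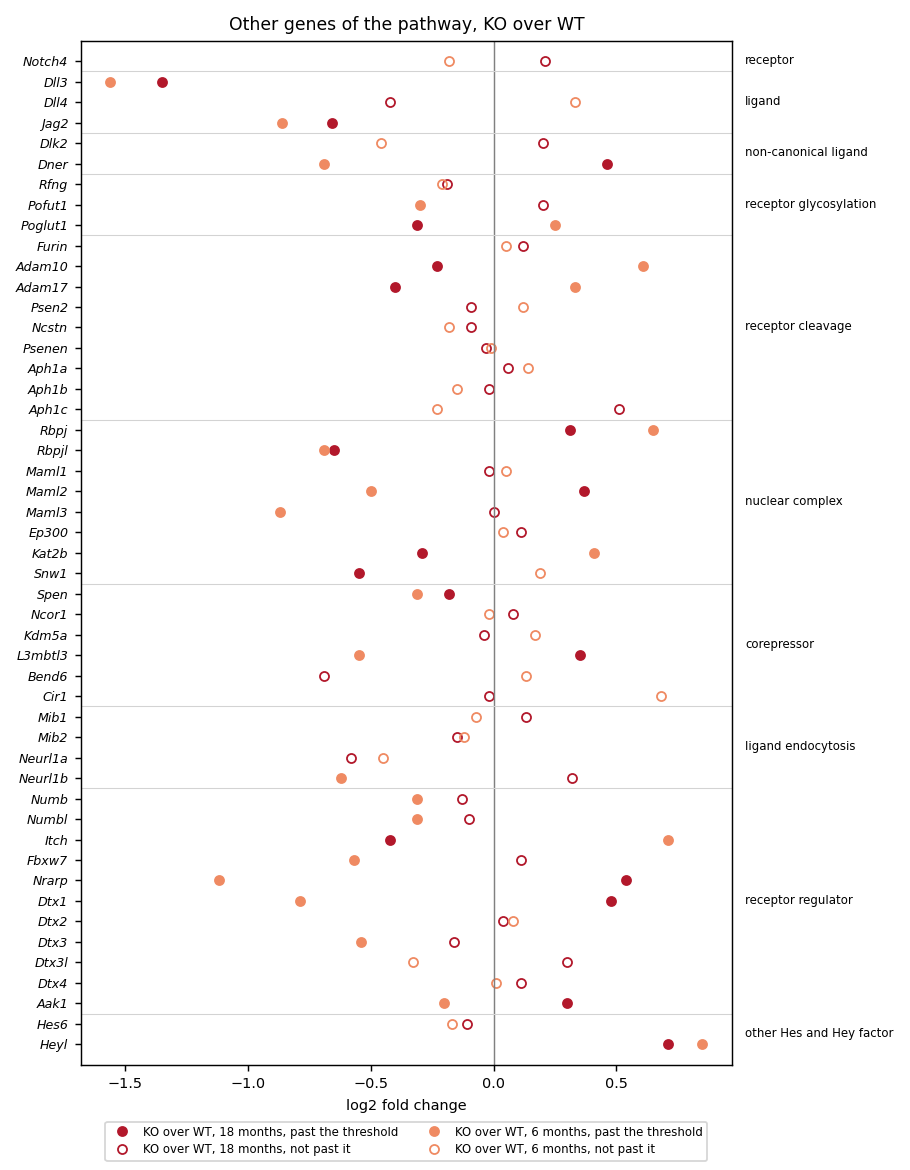
Log2 fold change of KO over WT for the other pathway genes that were tested and are reported here, grouped by role, with filled points past an adjusted p of 0.05 (edgeR) and open points short of it, dark for 18 months and light for 6 months. Adam10, Adam17, Kat2b and Itch lie left of 0 at 18 months and right of it at 6 months, Dner, Maml2, Nrarp and Dtx1 the other way round, and Heyl and Rbpj right of 0 at both ages.

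By age, 10 of the 51 genes were higher and 27 lower at 18 months than at 6 months in WT cells (72.5%), and 6 were higher and 16 lower in KO cells (43.1%). Of all genes, 59% passed by age in WT cells and 31.7% in KO cells. In KO cells leaving out 1 library gave 1 to 6 higher and 7 to 16 lower, with 1 and 7 when the second KO library at 6 months was left out. Without the first KO library at either age 3 were higher. Neurl1b, which acts in ligand endocytosis, fell 6.35-fold in WT cells (adjusted p = 3.26e-11, edgeR) and 3.30-fold in KO cells (adjusted p = 1.97e-07, edgeR). Heyl fell in WT cells by 0.81 in log2 (adjusted p = 0.000191, edgeR) and in KO cells by 0.95 (adjusted p = 5.3e-06, edgeR). Notch4 fell in WT cells by 0.95 (adjusted p = 0.000248, edgeR) and in KO cells by 0.56 (adjusted p = 0.022, edgeR), the KO call being lost without either KO library at 6 months or the first at 18 months.

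Markers of other cell types also differed between the groups, and no list ran in the order of all 10 genes. The 12 astrocyte markers summed to 9231 and 9208 CPM in KO cells at 18 months, against 4250 and 4303 CPM in WT cells, and to 7499 and 7508 CPM in KO cells at 6 months, against 12480 and 12460 CPM in WT cells. All 12 passed as higher in KO cells at 18 months and as lower at 6 months, as did Notch1, Notch2, Lfng and Hes1. Libraries of Jag1, Hes5, Hey1 and Hey2 had the same order, without passing the threshold at both ages. All 12 markers were also lower at 18 than at 6 months in WT cells, and 9 were higher in KO cells. Notch1 was instead lower with age in KO cells, at 226 CPM at 18 months against 286 CPM at 6 months.

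The 11 markers of pericytes and smooth muscle summed to 1820 and 1783 CPM in KO cells at 18 months, against 933.5 and 949.9 CPM in WT cells, and to 2406 and 2465 CPM in KO cells at 6 months, against 2056 and 2088 CPM in WT cells. KO libraries were above WT libraries at both ages, the order of Notch3. Single markers were mixed: of the 11, 8 were higher in KO cells at 18 months, and 5 were higher and 1, Tagln, was lower at 6 months. Tagln had log2 fold changes of -0.55 at 18 months, short of the threshold, and -0.60 at 6 months.

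The sum of the 9 precursor markers, for the cells that give rise to oligodendrocytes, was 925.0 and 938.3 CPM in KO cells at 18 months, against 1444 and 1481 CPM in WT cells, and 1308 and 1348 CPM in KO cells at 6 months, against 3339 and 3368 CPM in WT cells. All 9 were lower in KO cells at both ages, the order of Dll1. The 12 oligodendrocyte markers ran against most of the 10 genes, with 28710 and 28190 CPM in KO cells at 18 months, against 41600 and 41540 CPM in WT cells, and 31710 and 30780 CPM in KO cells at 6 months, against 14190 and 14230 CPM in WT cells. The 12 endothelial markers summed to 117.9 to 162.3 CPM over the 8 libraries and spanned 1.33-fold between group means. The 5 fibroblast markers had the genotype order of the astrocyte sum. Their mean sums were 38.16 CPM in KO and 24.61 CPM in WT cells at 18 months, and 58.33 and 84.18 CPM at 6 months. Of the 5, 2 passed as higher in KO cells at 18 months and 3 as lower at 6 months. Microglial and ependymal sums ran the other way at each age. The 6 excitatory neuron markers had 22.14 and 45.02 CPM in KO and WT cells at 18 months, and 151.4 and 169.4 CPM at 6 months. No marker of these lists was at 0 in all libraries, and their part in the levels of the 10 genes was not tested.

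**Figure D4:**
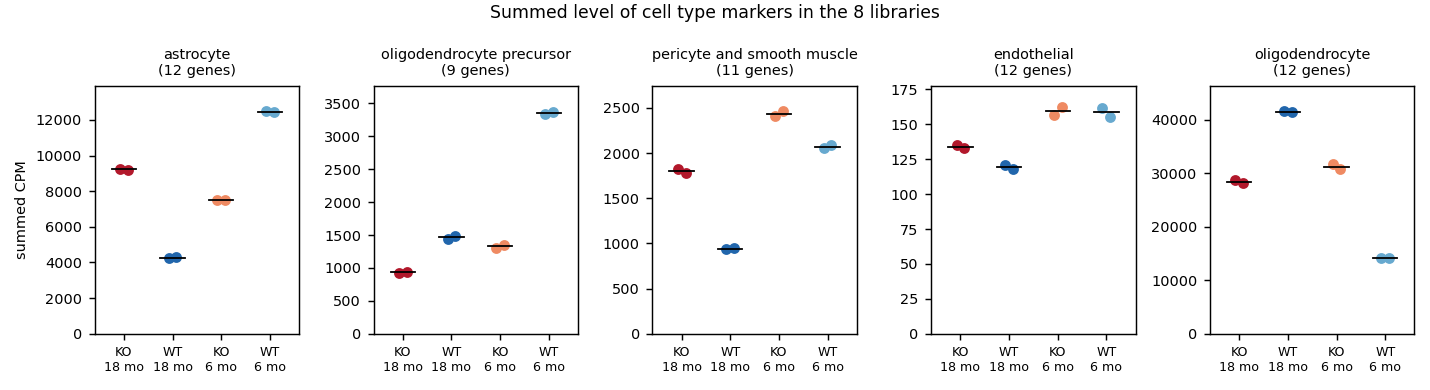
Summed CPM of the markers of astrocytes, oligodendrocyte precursors, pericytes and smooth muscle, endothelium and oligodendrocytes in the 8 libraries (linear axes from 0). Points are libraries and lines are group means (n = 2). Astrocyte and oligodendrocyte markers ran in opposite order over the 4 groups, and pericyte markers were higher in KO than in WT cells at both ages.

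As a description chosen after the values had been seen, each gene was divided by the summed CPM of a marker list in the same library, as CPM of the gene per 1000 CPM of the markers. Lfng then had 14.4 in KO cells at 18 months, 12.3 in WT cells at 18 months, 14.6 in KO cells at 6 months and 23.6 in WT cells at 6 months per 1000 CPM of astrocyte markers, so that the highest group mean was 1.92 times the lowest, against 5.58 times before division. Hes1 had 2.10, 2.55, 2.20 and 2.48 per 1000 CPM in the same order of groups, a spread of 1.21 times against 2.84 times. Over the 10 genes the median spread was 1.77 times by astrocyte markers and 2.50 times undivided, and 9 of 10 were narrower. Dll1 was wider by this measure, at 3.25 times. Other lists narrowed genes as well, all 10 by endothelial markers (median 2.02 times), 8 by pericyte and smooth muscle markers (median 2.02 times) and 6 by precursor markers (median 2.50 times), although the endothelial sum itself spanned only 1.33-fold.

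Several lists narrowed the same gene, and the spreads below are set side by side with no choice between lists. Notch3 had 49.0 in KO cells at 18 months, 57.1 in WT cells at 18 months, 71.9 in KO cells at 6 months and 59.1 in WT cells at 6 months per 1000 CPM of pericyte and smooth muscle markers, a spread of 1.47 times against 3.26 times undivided, and 2.44 times by the astrocyte list. By the pericyte list Lfng spanned 3.16 times and Hes1 2.20 times. Dll1 had 12.6, 12.1, 12.1 and 9.26 per 1000 CPM of precursor markers in that order, 1.36 times against 2.65 times undivided. Jag1 spanned 1.37 times and Hey2 1.38 times by the pericyte list, and 1.43 and 1.68 times by the astrocyte list. Hes5 spanned 3.84 times undivided, 2.34 times by the astrocyte list and 1.91 times by the precursor list. Division by oligodendrocyte markers widened all 10 genes, to a median of 6.60 times.

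**Figure D5:**
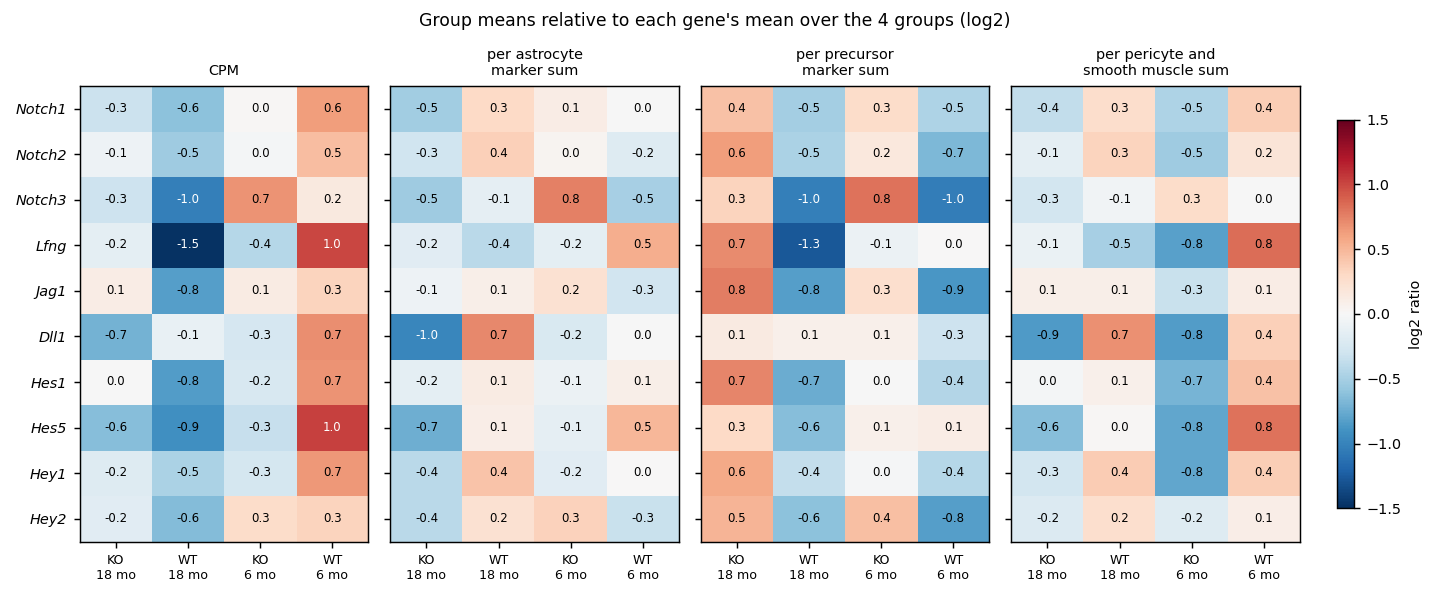
Group means of the 10 genes as CPM and per summed CPM of 3 marker lists, each as log2 of its ratio to the gene's mean over the 4 groups, so that pale cells mark little spread. Lfng spans 5.58 times as CPM, and 1.92, 3.96 and 3.16 times per astrocyte, precursor, and pericyte and smooth muscle markers. In that order of lists Notch3 spans 2.44, 3.62 and 1.47 times, and Dll1 3.25, 1.36 and 2.88 times. Division by the endothelial and oligodendrocyte lists is not drawn. The endothelial list narrowed all 10 genes and the oligodendrocyte list widened all 10.

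The 10 genes differed in how alike their patterns were over the 8 libraries. Pearson's r of log2 CPM was 0.98 between Lfng and Hes1 and between Notch2 and Lfng, 0.96 between Notch1 and Notch2 and between Notch1 and Hes5, and 0.93 between Notch3 and Hey2. It was 0.18 between Notch3 and Dll1 and 0.20 between Jag1 and Dll1. These values describe 8 libraries that fall into 4 groups, share their scaling, and are not independent.

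Among 9499 genes with a mean of at least 10 CPM, the 3 most alike in pattern to each gene were taken by the same measure. For Lfng they were Aldoc, a glycolytic enzyme and a member of the astrocyte list (r = 0.999), Glud1 (0.998) and Sardh (0.997). For Notch1 they were Clip1 (0.999), Adgrl1 (0.999) and Plxnb2 (0.998), and for Notch2 they were Sall3 (0.998), Slc7a10 (0.998) and Tspan7 (0.997). Notch3 was most like Pde4c (0.989), Cgnl1 (0.988) and Pde5a (0.988), and Jag1 was most like Npas2 (0.990), Pcdh18 (0.988) and Pitpnc1 (0.988).

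Dll1 was most like Acan (0.994), Myt1 (0.993) and Itga9 (0.992). The genes most like Hes1 were Dusp18 (0.992), Snx18 (0.991) and Ccdc93 (0.988), and those most like Hes5 were Zgpat (0.998), Astn2 (0.994) and Btd (0.992). Hey1 had the lowest values, with Rbm28 (0.985) and Ednrb (0.984), and Hey2 was most like Kctd1 (0.997), Filip1l (0.996) and Lama4 (0.995).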

How the data were processed

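RNA-seq was made from total RNA of sorted cortical cells. The authors deposited an unnormalized count of reads for each gene and library. The submitters' processing notes name CASAVA (1.8.2), STAR (2.5.2a), featureCounts (1.5.0-p1) and mm10. They give neither the annotation release nor the strand setting. Symbols, positions and exon lengths came from GENCODE for mm10 (99.7% of IDs matched), and promoter sequences from RefSeq (GRCm38.p6).

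After TMM scaling and a filterByExpr filter (minimum count 10), counts were fitted by quasi-likelihood in edgeR (4.0.16, under R 4.3.3) as 4 groups in 1 model without a replicate block, with 4 residual degrees of freedom, and adjusted by Benjamini-Hochberg over 18205 genes at a threshold of 0.05. Tested genes held at least 99.7% of each library's counts. CPM are relative to the TMM-scaled library sizes over tested genes. SEs and 95% intervals come from the same fit and cover the spread between libraries only. For r, log2 CPM had a prior count of 2. Alternatives were other scalings, no filter, DESeq2 1.42.0, only the groups compared, a replicate block, removal of abundant rRNA-like genes, and leaving out each library.

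The genes, lists and rules were chosen with earlier results of these data known. Named were all 10 genes, Dnmt1, and of the other pathway genes up to 4 per direction with the smallest p in each comparison (3 for the interaction), with Notch4, Dll4 and Heyl always; some genes the rules take are left unreported here. Libraries of a group differed beyond counting noise, so none was a duplicate file, and each entered the fit. As technical replicates of pooled cells they do not stand for separate mice.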

Additional observations from a re-analysis of the deposited data

Results flagged for a closer look

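For 8 of the 10 genes, both KO libraries lay above both WT libraries at 18 months and below them at 6 months. The change in log2 fold change of KO over WT between the ages (18 months minus 6 months) was 2.76 for Lfng, 1.73 for Hes1, 1.61 for Hes5, 1.22 for Hey1, 1.16 for Jag1, 0.96 for Notch2, 0.90 for Notch1 and 0.53 for Hey2. The same pattern was seen in 14% of all genes tested. Of the 8 genes, Jag1 and Hey2 at 6 months and Hes5 and Hey1 at 18 months did not pass the threshold for KO against WT. As these genes were chosen on such values, the values are a description, and neither the counts past the threshold given for them above nor the share of all genes is evidence about them.

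Of the 51 other pathway genes tested, 35.3% passed the edgeR test of that change, no more than the 39.1% of all genes. The change was positive, so that the KO over WT ratio was higher at 18 months, for Nrarp (1.66), Dtx1 (1.27), Dner (1.15), Neurl1b (0.95), L3mbtl3 (0.90), Maml2 (0.88), Maml3 (0.87), Fbxw7 (0.67), Pofut1 (0.50), Aak1 (0.50) and Dtx3 (0.38). It was negative for Itch (-1.13), Adam10 (-0.85), Adam17 (-0.73), Snw1 (-0.73), Kat2b (-0.70) and Poglut1 (-0.56). All 12 astrocyte markers and all 9 precursor markers also changed in the positive direction and all 12 oligodendrocyte markers in the negative direction by the same test, and their part in these values was not tested.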

How the results depend on the processing

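Of 15 counts recomputed in up to 16 settings, 220 of 237 values stayed within 1.5 times the reported one. With library totals in place of TMM, the other pathway genes higher in KO cells at 18 months numbered 14 and those lower 7, those higher at 18 than at 6 months in KO cells 11, and those with a positive interaction 18. That scaling moved the median of all genes in log2 by 0.14 in KO over WT at 18 months, 0.10 in 18 over 6 months in KO cells and 0.21 in the interaction. DESeq2 gave 5 higher in KO cells at 18 months, 3 higher with age in KO cells, and 3 of the 10 genes past the threshold with age in KO cells. Leaving out 1 library gave 1 to 6 higher and 7 to 16 lower with age in KO cells (3 to 5 of the 10 genes), and 5 to 8 higher and 6 to 13 lower in KO cells at 18 months (6 to 9 of the 10 genes). At 6 months it gave 7 to 10 higher and 12 to 18 lower. Fitting only the groups compared, and so leaving out the WT libraries at 6 months, left 8 higher, 12 lower and 8 of the 10 genes in KO cells at 18 months.

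With a replicate block, 8 higher and 13 lower were called in KO cells at 18 months, and no call of the 10 genes changed. Libraries with the same number shared deviations with r of 0 to 0.076. With 2 libraries a group these low values cannot settle whether equal numbers mark a shared preparation.

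Of the values for the 10 genes in single settings, 760 were counted as unchanged, 24 lost the call and 6 gained it. For the other pathway genes 3824 were counted as unchanged, 146 lost the call and 59 gained it. Of the values past the threshold for the 10 genes, 0 changed sign. A value short of the threshold that changed sign counted as unchanged, whether or not it then passed. For example, Notch2 by age in KO cells ranged from -0.08 to 0.06 in log2. The interaction of Hey2 was lost without the filter, with DESeq2 and without any 1 library. Hes5 had 42 to 145 reads per library and Dll4 2 to 22, and 2 libraries of pooled cells per group give no estimate of the spread between mice.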
